A study of Mus musculus with 6 samples.

Results

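Lck, Fyn, Zap70, Syk, Lat, Lcp2, Themis, Plcg1 and Vav1 encode the kinases, adaptors and effectors that act directly below the T-cell receptor (TCR). They were chosen by name, and all 9 were found among the 34245 genes of an RNA-seq table of peripheral T-cell lymphomas (PTCL), each with a single entry. The 3 tumors came from lymph nodes of terminally sick FVB mice that carried a single functional allele of the DNA methyltransferase Dnmt3b (Dnmt3b+/-). The methods of the study give the background as FVB/N. The series also holds bisulfite sequencing of 2 Dnmt3b+/- PTCL and 1 Dnmt3a-/- PTCL, which was not analysed here. No RNA-seq of control T-cells was used here either, so levels are compared between tumors, between genes and with all genes of the table, and no test between groups was possible. Each tumor is a single library of bulk lymph node tissue, which holds tumor cells together with other cells of the node. The ages of the 3 mice were not given in the sources used here.

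When the TCR binds its ligand, the Src kinases Lck and Fyn phosphorylate the CD3 and zeta chains, and the Syk-family kinase Zap70 docks there and is activated. Zap70 phosphorylates the membrane adaptor Lat and the cytosolic adaptor SLP76, the product of Lcp2, and on this scaffold Plcg1 and Vav1 are brought together to start calcium, Ras and cytoskeletal signals. Themis is a T-lineage adaptor known for its part in thymocyte selection, and Syk does the work of Zap70 mainly in B-cells, myeloid cells and early thymocytes.

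Values are FPKM, the reads on a gene scaled for how long its exons are and how deeply the library was sequenced. The depth recovered from the values was 30726570 reads for tumor 1, 18969988 for tumor 2 and 20770928 for tumor 3. All 9 genes gave whole reads in all 3 tumors, within 0.02 read, so that exact 95% Poisson intervals could be set on each FPKM. These intervals cover counting error only, and not the differences between mice or libraries.

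The 3 libraries differed in the levels of cell type markers, and the mix of cells itself was not measured. All 8 T-cell markers were above 1 FPKM in every tumor, with summed levels of 1164, 894 and 1249 FPKM in tumors 1, 2 and 3. Cd8b1 and Cd8a, the most abundant of them, were lowest in tumor 2 and weigh on these sums. By contrast, 4 of the 8 markers were highest in tumor 2 and 4 were lowest in tumor 1. The shares of all genes with a mean of at least 1 FPKM were 33.7% and 24.3%. The 10 macrophage markers, led by Lyz2, summed to 547, 149 and 38.2 FPKM, and 8 of the 9 with a mean of at least 1 FPKM were highest in tumor 1, against 50.6% of all such genes. The 6 plasma cell markers summed to 832, 192 and 212 FPKM, most of it from Jchain, with 814, 185 and 179 FPKM. Jchain was the only one of the 6 to be highest in tumor 1. The 8 pancreatic acinar markers, led by Ctrb1, summed to 87.0, 440 and 0.657 FPKM, so tumors 1 and 2 held transcripts of an organ outside the lymph node and tumor 3 nearly none. Tumor 1 also stood apart in Dntt, which encodes the nucleotide-adding polymerase of immature lymphocytes, with 10.3 FPKM against 0.0743 and 0.747 in tumors 2 and 3. Tumor 2 stood apart in the natural killer receptor gene Klre1, with 32.2 FPKM against 0.242 and 0.0551 in tumors 1 and 3. Klrb1c and Klra8 of the same list of 5 markers were also highest in tumor 2. Eomes was instead highest in tumor 3, and Ncr1 in tumor 1, with 18, 6 and 4 reads in tumors 1, 2 and 3. For these reasons the means and ratios of the 9 genes are also given below without tumor 1 and without tumor 2.

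Each of the 9 genes exceeded 1 FPKM in each tumor, and their median mean level was 35.4 FPKM. Of the 34245 genes of the table, 11197 had a mean of at least 1 FPKM. The share of all genes above 1 FPKM in every tumor was not counted, here or for the lists. By mean level the order was Lck, Lat, Fyn, Zap70, Vav1, Lcp2, Plcg1, Themis and Syk. The ranges of 6 of the 8 pairs of neighbours in this order overlapped between tumors. The exceptions were Lck above Lat, where the lowest Lck value was 160 FPKM and the highest Lat value 147, and Plcg1 above Themis, with 20.4 and 19.6 FPKM. The second gap was not kept when the longest transcript replaced merged exons as the length of a gene, since Themis then reached 45.1 FPKM in tumor 1 against 35.3 for Plcg1. Lck was the highest and Syk the lowest of the 9 in every tumor.

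**Figure D1:**
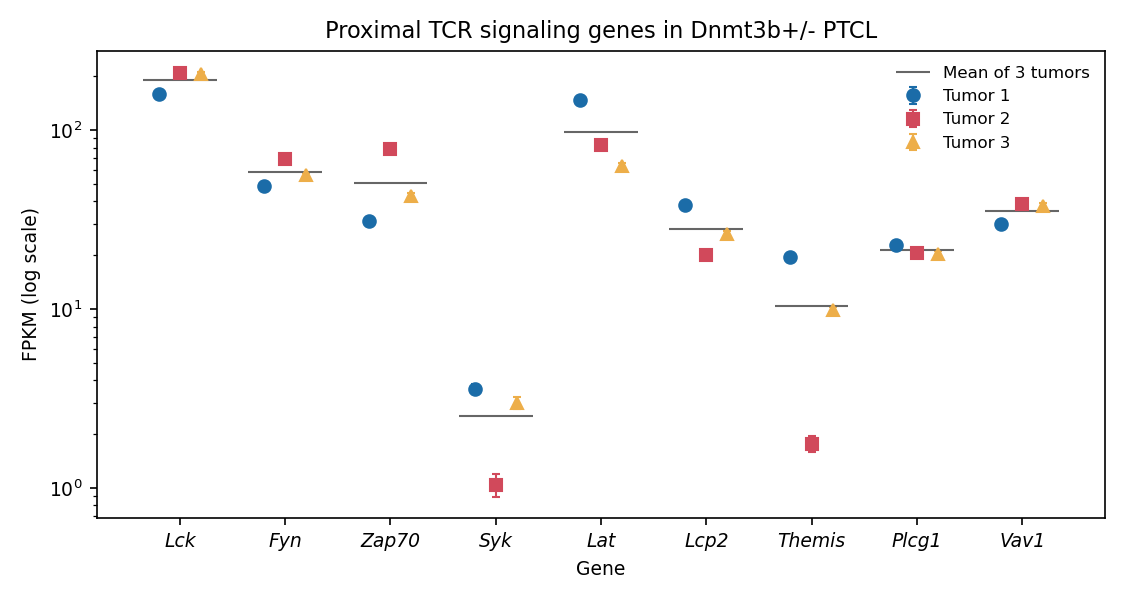
FPKM of the 9 genes on a log scale, with a symbol for each of the 3 tumors, exact 95% Poisson intervals as bars where they exceed the symbol, and the mean of the tumors as a line. Plcg1 lies between 20.4 and 22.9 FPKM, whereas Themis spans 1.77 to 19.6 FPKM.

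The highest of the 3 tumor values was at least 2 times the lowest for 4 of the 9 genes, Zap70, Syk, Lat and Themis. Of the 11197 genes with a mean of at least 1 FPKM, 34.4% reached this ratio, and the count of 4 of 9 is near that background. The median ratio was 1.90 for the 9 genes and 1.68 for the 11197 genes. Without tumor 1 the count was 2 (Syk and Themis) against 16.4% of all genes, and without tumor 2 it was 1 (Lat) against 17.7%. Without tumor 3 it was 3 (Zap70, Syk and Themis) against 25.2%. A ratio over fewer tumors cannot exceed that over all 3, so these counts could only stay or fall, and the share of all genes fell as well. The part of the macrophage and acinar transcripts of tumors 1 and 2 in the count was not tested.

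**Figure D2:**
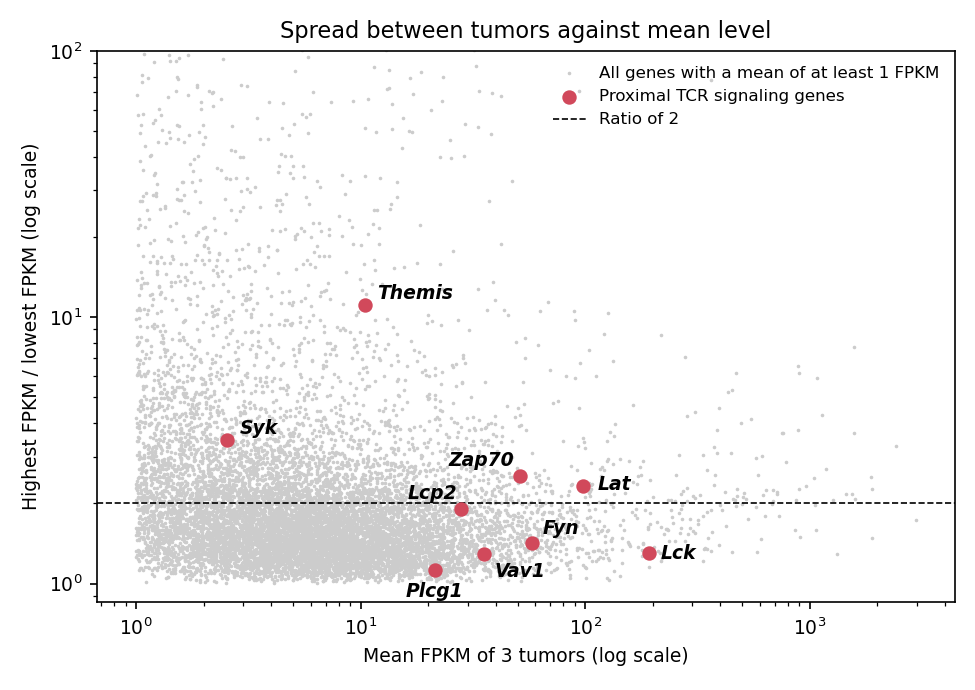
Ratio of the highest to the lowest tumor value against the mean FPKM, both on log scales, for the 9 genes in red and all 11197 genes with a mean of at least 1 FPKM in grey, with 146 genes above the top of the axis not drawn. Zap70, Syk, Lat and Themis lie above the dashed line at a ratio of 2, within the cloud of all genes.

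Tumor 1 held the highest value of 5 genes (Syk, Lat, Lcp2, Themis and Plcg1), where 50.6% of all genes with a mean of at least 1 FPKM were highest. Tumor 2 held the highest value of the other 4 (Lck, Fyn, Zap70 and Vav1), against 33.7% of all genes. Tumor 3 held none, against 15.7% of all genes. This split depended on the scaling. With median-of-ratios factors tumors 1, 2 and 3 were highest for 4, 2 and 3 of the 9 genes and for 39.0%, 37.3% and 23.7% of all genes. Relative to Cd3d, Cd3e and Cd3g they were highest for 6, 3 and 0 of the 9 genes and for 71.5%, 22.7% and 5.83% of all genes. The median of all genes in tumor 1 was 0.14 above the geometric mean of the tumors on the log2 scale of FPKM. The tumor with the highest value was the same under all 3 other scalings for 6 of the 9 genes, and differed under at least 1 for Lck, Plcg1 and Vav1. The tumor with the lowest value was the same under all 3 for 4 of the 9, and differed under at least 1 for Lck, Fyn, Zap70, Plcg1 and Vav1.

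The Src kinases stayed below a ratio of 2 under every scaling. Lck (ENSMUSG00000000409, chr4:129548344-129573641 of GRCm38, minus strand), the kinase carried by the CD4 and CD8 coreceptors, was at 160, 208 and 207 FPKM in tumors 1, 2 and 3, and averaged 192 ± 27.6 (SD, n = 3). Without tumor 1 its mean was 207 FPKM and its ratio of highest to lowest 1.00, and without tumor 2 they were 183 and 1.30. Tumors 2 and 3 could not be told apart by counting error, with intervals of 204 to 212 and 204 to 211 FPKM, and tumor 1 was lower. Fyn (ENSMUSG00000019843, chr10:39368855-39565381, plus strand), a related kinase that associates with the CD3 chains, had 48.8, 69.4 and 56.4 FPKM in tumors 1, 2 and 3, a mean of 58.2 ± 10.4 (SD, n = 3). Without tumor 1 its mean and ratio were 62.9 and 1.23, and without tumor 2 52.6 and 1.15. Fyn was highest in tumor 2, and its ratio of highest to lowest was 1.42, against 1.30 for Lck. Relative to Cd3d, Cd3e and Cd3g the ratio of Lck was 1.07 and that of Fyn 1.32. Tumor 3 was then the lowest for both genes instead of tumor 1, with Lck at 196, 197 and 184 in tumors 1, 2 and 3.

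Within a tumor, the level of Lck was 3.27, 2.99 and 3.68 times that of Fyn for tumors 1, 2 and 3. Both are per length of exons, and the mean of the 3 ratios was 3.31 ± 0.345 (SD, n = 3). The exact 95% intervals of these ratios, 3.18 to 3.37, 2.90 to 3.09 and 3.56 to 3.80, did not overlap between tumors. Other genes of the Src family were far lower. Lyn had 8.79, 1.95 and 3.82 FPKM, and Fgr had 5.27, 3.63 and 2.34. These are kinases mainly of myeloid cells and B-cells, and both were highest in tumor 1. So were 8 of the 9 macrophage markers with a mean of at least 1 FPKM, against 50.6% of all such genes. The part of these cells in the levels of Lyn and Fgr was not tested. Blk, the Src kinase of B-cells, was highest in tumor 3, with 1.77, 0.430 and 3.53 FPKM in tumors 1, 2 and 3. Yes1 had 2.37, 0.814 and 2.25 FPKM and Src 1.15, 0.917 and 0.264. Frk had no read in tumors 1 and 3 and 2 reads in tumor 2.

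Zap70 and Syk, the Syk-family kinases, ordered the tumors in opposite ways in FPKM. Relative to Cd3d, Cd3e and Cd3g the orders were not fully opposite, since Zap70 was then lowest in tumor 3, at 37.9 against 38.3 in tumor 1. Zap70 (ENSMUSG00000026117, chr1:36761798-36782818, plus strand) was at 31.2, 79.0 and 42.8 FPKM for tumors 1, 2 and 3, and averaged 51.0 ± 24.9 (SD, n = 3). Tumor 2 was high and tumors 1 and 3 lay closer together. Its ratio of highest to lowest was 2.53, with an exact 95% interval of 2.41 to 2.65, and was between 1.97 and 2.82 under the 3 other scalings. The mean and ratio of Zap70 were 60.9 FPKM and 1.85 without tumor 1 and 37.0 and 1.37 without tumor 2, so the ratio of 2 was reached only with both. The summed natural killer cell markers were also highest in tumor 2 and lowest in tumor 1, with 20.98, 78.2 and 48.6 FPKM in tumors 1, 2 and 3. Klre1, Klrb1c and Klra8 were highest in tumor 2. Eomes, the leading marker of that list, was instead highest in tumor 3. Ncr1, a defining marker with few reads (18, 6 and 4 in tumors 1, 2 and 3), was highest in tumor 1, where Zap70 was lowest. The part of such cells in the level of Zap70 was not tested. Syk (ENSMUSG00000021457, chr13:52583173-52648792, plus strand) was at 3.59, 1.04 and 3.00 FPKM (1034, 185 and 583 reads) in the same order of tumors, a mean of 2.54 ± 1.34 (SD, n = 3). Here tumor 2 was low. The ratio of highest to lowest was 3.45, with an interval of 2.95 to 4.06, and lay between 3.10 and 4.48 under the 3 other scalings. Leaving out tumor 1 gave Syk a mean of 2.02 FPKM and a ratio of 2.88, and leaving out tumor 2 gave 3.30 and 1.20.

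The promoters of the 4 genes with a ratio of at least 2 are shown because the CpG dinucleotide is the substrate of Dnmt3b and because these windows differ in how many they hold. Each runs from 250 bases before to 50 bases after the start of the gene in RefSeq, build GRCm38.p6, is written 5′ to 3′ on the strand of the gene, and has each CpG in capitals. The methylation of these sites was not analysed here. The first window of Zap70 (chr1:36761548-36761847, plus strand) holds 8 CpG and the first window of Syk (chr13:52583187-52583486, plus strand) holds 31.
Zap70: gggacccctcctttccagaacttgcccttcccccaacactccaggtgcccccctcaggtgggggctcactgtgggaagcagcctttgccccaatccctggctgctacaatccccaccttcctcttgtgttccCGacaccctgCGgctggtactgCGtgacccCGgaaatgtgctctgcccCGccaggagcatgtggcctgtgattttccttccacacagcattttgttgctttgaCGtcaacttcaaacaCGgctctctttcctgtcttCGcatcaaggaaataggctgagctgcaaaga
Syk: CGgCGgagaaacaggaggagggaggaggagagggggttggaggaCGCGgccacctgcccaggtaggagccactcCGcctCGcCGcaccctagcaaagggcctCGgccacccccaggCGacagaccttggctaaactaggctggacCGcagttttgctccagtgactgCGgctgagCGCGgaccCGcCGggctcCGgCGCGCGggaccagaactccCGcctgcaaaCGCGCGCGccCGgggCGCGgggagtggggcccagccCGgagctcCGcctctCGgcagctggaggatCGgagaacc

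Within a tumor the level of Zap70 was 8.69, 75.8 and 14.3 times that of Syk for tumors 1, 2 and 3, a mean of 32.9 ± 37.3 (SD, n = 3). The exact 95% intervals, 8.09 to 9.33, 65.5 to 88.3 and 13.0 to 15.6, did not overlap. Zap70 was the more abundant kinase in every tumor. The mean ratio rests on tumor 2 and was 11.5 without it.

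Genes of cell types that use Syk moved with it in part. The 10 B-cell markers, led by Cd79a, summed to 69.5, 51.5 and 127 FPKM in tumors 1, 2 and 3, and 8 of the 9 with a mean of at least 1 FPKM were lowest in tumor 2, as Syk was, against 38.3% of all genes. Cd79a had 23.1, 7.31 and 49.0 FPKM. The exception was Cd22, with 5.84, 36.5 and 13.9 FPKM. No B-cell marker was without a read. Blnk, the B-cell relative of Lcp2, had 1.19, 0.264 and 1.26 FPKM and was lowest in tumor 2 as well. All 9 macrophage markers with a mean of at least 1 FPKM were lowest in tumor 3, against 37.4% of all genes, and Syk had 3.00 FPKM there. The part of these cells in the level of Syk was not tested. In bulk tissue, fewer cells of a type and less RNA per cell cannot be told apart, here and in what follows.

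The 3 adaptors Lat, Lcp2 and Themis were all highest in tumor 1, as were 50.6% of all genes, and stayed so with FPKM rescaled to a common sum, with median-of-ratios factors and relative to Cd3d, Cd3e and Cd3g, where 60.5%, 39.0% and 71.5% of all genes were. Lat (ENSMUSG00000030742, chr7:126363824-126369570, minus strand), the membrane scaffold, was at 147, 82.7 and 63.3 FPKM in tumors 1, 2 and 3, and averaged 97.6 ± 43.7 (SD, n = 3). Its ratio of highest to lowest was 2.32, with an exact 95% interval of 2.24 to 2.41. Without tumor 1 the mean and ratio were 73.0 FPKM and 1.31, and without tumor 2 they were 105 and 2.32. No other of the 9 genes had a ratio of at least 2 without tumor 2. Lcp2 (ENSMUSG00000002699, chr11:34046920-34092295, plus strand) had 38.0, 20.0 and 26.3 FPKM in tumors 1, 2 and 3, a mean of 28.1 ± 9.16 (SD, n = 3). Its ratio of 1.90, with an interval of 1.80 to 2.01, lay just under 2 and passed it, at 2.09 and 2.47, with FPKM rescaled to a common sum and relative to Cd3d, Cd3e and Cd3g. Its mean and ratio were 23.1 FPKM and 1.32 without tumor 1 and 32.1 and 1.45 without tumor 2.

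The level of Lat was 3.86, 4.14 and 2.41 times that of Lcp2 for tumors 1, 2 and 3, a mean of 3.47 ± 0.931 (SD, n = 3). Tumor 3 was the low one. The intervals of tumors 1 and 2, 3.74 to 3.99 and 3.92 to 4.39, overlapped, and that of tumor 3, 2.29 to 2.54, lay below both.

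Themis (ENSMUSG00000049109, chr10:28668360-28883818, plus strand) varied most of the 9. Its level was 19.6, 1.77 and 9.94 FPKM (7048, 392 and 2411 reads) for tumors 1, 2 and 3, and averaged 10.4 ± 8.94 (SD, n = 3). All 3 tumors lay apart from each other beyond counting error. The ratio of highest to lowest was 11.1, with an exact 95% interval of 10.02 to 12.3, and lay between 9.96 and 14.4 under the 3 other scalings. Themis had a mean of 5.85 FPKM and a ratio of 5.62 without tumor 1, and of 14.8 and 1.98 without tumor 2. The promoter of Lat (chr7:126369519-126369818, minus strand) holds 10 CpG and the first window of Themis (chr10:28668110-28668409, plus strand) holds 1, with CpG again in capitals.
Lat: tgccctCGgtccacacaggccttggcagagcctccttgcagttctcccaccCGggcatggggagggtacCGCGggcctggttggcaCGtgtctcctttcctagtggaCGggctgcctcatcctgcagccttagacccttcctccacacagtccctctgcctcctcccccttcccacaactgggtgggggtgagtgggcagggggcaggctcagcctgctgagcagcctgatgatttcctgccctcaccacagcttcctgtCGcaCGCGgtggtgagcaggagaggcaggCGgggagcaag
Themis: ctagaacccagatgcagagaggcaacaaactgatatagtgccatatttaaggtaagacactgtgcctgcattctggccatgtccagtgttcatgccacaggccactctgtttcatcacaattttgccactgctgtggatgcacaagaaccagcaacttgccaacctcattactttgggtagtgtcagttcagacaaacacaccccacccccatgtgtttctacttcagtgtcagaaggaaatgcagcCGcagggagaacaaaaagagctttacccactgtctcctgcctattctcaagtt

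Themis is expressed from early thymocyte stages onward, so markers of immature thymocytes were set beside it. Of these 7 genes, Rag1, Rag2 and Ptcra, which encode the recombinase and the pre-TCR alpha chain, were at or near 0, with 2 reads of Rag1 in tumor 1 as the only reads of the 3 genes in any tumor. Arpp21 had 149, 0 and 1 reads in tumors 1, 2 and 3. A count of 0 allows up to 3 reads. The summed level of the list was 16.4, 2.72 and 6.66 FPKM in tumors 1, 2 and 3, and most of it in tumor 1 came from Dntt, with 10.3, 0.0743 and 0.747 FPKM. The order of tumors in this sum and in Dntt was that of Themis. Cd1d1, the most abundant gene of the list by mean, had 4.95, 2.52 and 5.30 FPKM and was highest in tumor 3. The part of any such cells in the level of Themis was not tested.

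The genes most like Themis, by the Euclidean distance of centred log2(FPKM + 0.1) over the 3 tumors among 11196 genes, included Kdelc1, Bcl2a1a, Bmyc and Camk2d, at distances of 0.0369 to 0.242. Camk2d, a calcium-dependent kinase, had 2.56, 0.101 and 1.18 FPKM in tumors 1, 2 and 3. Kdelc1, Bcl2a1a and Bmyc rest on 10, 9 and 11 reads in tumor 2, and Bcl2a1a has close copies in the genome that can share its reads. Themis2, the relative of Themis in B-cells and myeloid cells, had 8.89, 5.87 and 6.32 FPKM, a ratio of 1.51, so in tumor 2 it was above Themis and in tumors 1 and 3 below it. Themis3 was at 0.0264 FPKM or lower in all 3 tumors.

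The effectors Plcg1 and Vav1 also stayed below a ratio of 2 under every scaling. Plcg1 (ENSMUSG00000016933, chr2:160731300-160775760, plus strand), the phospholipase that makes the messengers for calcium release and protein kinase C, was at 22.9, 20.7 and 20.4 FPKM in tumors 1, 2 and 3. Its mean was 21.3 ± 1.38 (SD, n = 3) and its ratio of highest to lowest 1.12, the smallest of the 9 in FPKM. It was the smallest with median-of-ratios factors too, at 1.02, but not with FPKM rescaled to a common sum, at 1.33 against 1.17 for Vav1, nor relative to Cd3d, Cd3e and Cd3g, at 1.56 against 1.07 for Lck. Without tumor 1 the mean and ratio were 20.5 FPKM and 1.01, and without tumor 2 they were 21.7 and 1.12. Vav1 (ENSMUSG00000034116, chr17:57279100-57328031, plus strand), an exchange factor that activates Rac GTPases, had 29.9, 38.5 and 37.7 FPKM in tumors 1, 2 and 3, a mean of 35.4 ± 4.74 (SD, n = 3). Tumors 2 and 3 overlapped in their counting intervals, 37.1 to 39.97 and 36.4 to 39.1 FPKM, and tumor 1 lay below them, with an interval of 28.9 to 30.9. Leaving out tumor 1 gave Vav1 a mean of 38.1 FPKM and a ratio of 1.02, and leaving out tumor 2 gave 33.8 and 1.26. Relative to Cd3d, Cd3e and Cd3g tumor 1 was instead the highest for Vav1, with a ratio of 1.10 between tumors.

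The relatives of both effectors were lower. Plcg2, the phospholipase of B-cells and myeloid cells, had 7.11, 2.38 and 3.19 FPKM in tumors 1, 2 and 3, Vav2 had 2.12, 1.58 and 1.55, and Vav3 had 1.61, 0.263 and 1.09. Lat2, the Lat relative of B-cells and myeloid cells, had 2.89, 5.51 and 2.81 FPKM. Clnk had 8, 5 and 0 reads. Of the 15 relatives of the 9 genes, 9 had a mean of at least 1 FPKM, and 6 of these had a ratio of at least 2, against 34.4% of all genes. Of these 9 relatives, 7 were highest in tumor 1, against 50.6% of all genes, and 6 were lowest in tumor 2, against 38.3%. Except for Themis2 in tumor 2, the T-cell members of these families, Lck, Fyn, Lat, Lcp2, Plcg1, Vav1 and Themis, were above their listed relatives in every tumor.

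**Figure D3:**
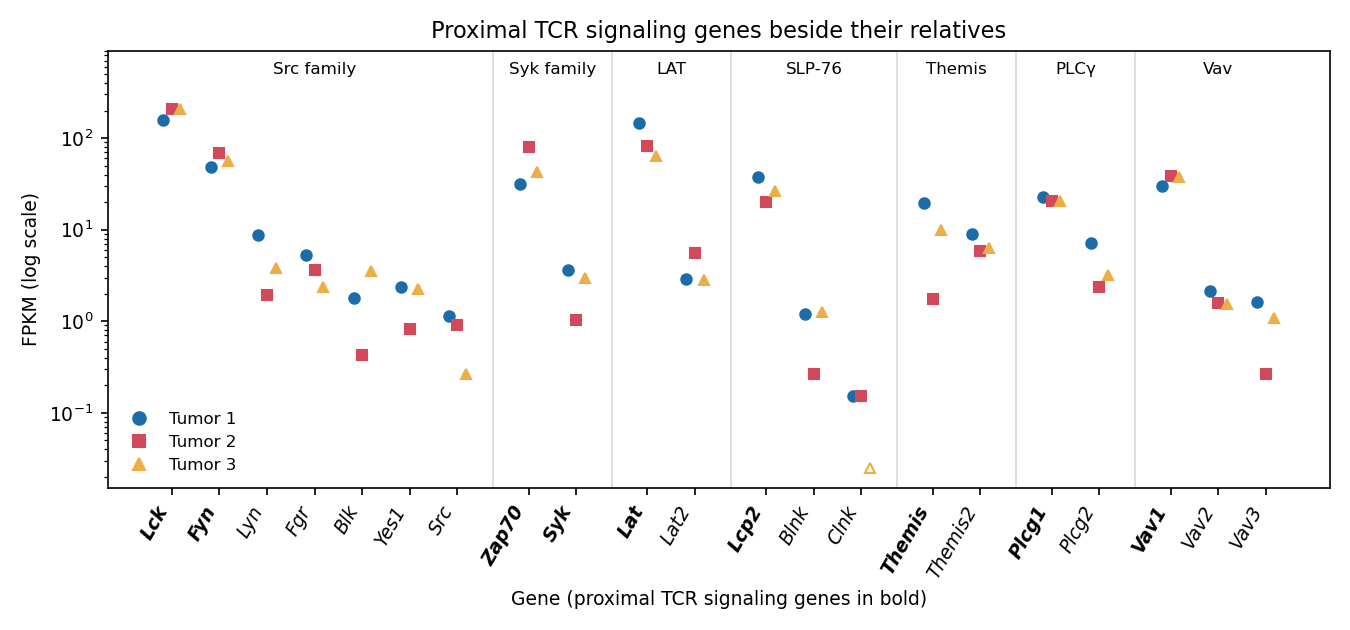
FPKM on a log scale of the 9 genes, in bold, and 12 of their 15 relatives in each of the 3 tumors, with an open symbol for a gene without a read. The relatives lie at 8.89 FPKM or lower, and Themis2 exceeds Themis in tumor 2.

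The 7 lists of other genes of the pathway hold 95 genes, all found. Of these, 88 had a mean of at least 1 FPKM, and 24 of the 88 had a ratio of at least 2, which is 27.3% against 34.4% of all genes. Their median ratio was 1.54. Tumors 1, 2 and 3 were highest for 37, 38 and 13 of them, against 50.6%, 33.7% and 15.7% of all genes.

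All 14 genes of the receptor and its coreceptors were above 1 FPKM in every tumor, with a median mean level of 103 FPKM, and 4 had a ratio of at least 2, against 34.4% of all genes. Cd8b1 was the most abundant, with 435, 166 and 443 FPKM in tumors 1, 2 and 3, followed by Cd8a with 259, 122 and 218 and Trac, the constant region of the TCR alpha chain, with 165, 213 and 182. Both Cd8 chains were lowest in tumor 2. Cd4 varied most, with 28.4, 4.28 and 8.22 FPKM, and was highest in tumor 1 and lowest in tumor 2 like Themis. The summed macrophage and immature thymocyte markers were highest in tumor 1 too. Which cells the Cd4 reads came from, T-cells and tumor cells included, was not tested.

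Genes that control the Src kinases held both orders of tumors seen above. All 9 were above 1 FPKM in every tumor, and 4 had a ratio of at least 2, against 34.4% of all genes. Ptpn6, the phosphatase Shp1, had 65.0, 187 and 125 FPKM in tumors 1, 2 and 3, and Lime1, a membrane adaptor that binds Csk and Src kinases, had 47.4, 131 and 80.9. Both were lowest in tumor 1 and highest in tumor 2, as Zap70 was. Pag1, which anchors the inhibitory kinase Csk at the membrane, had the opposite order, with 15.2, 3.59 and 8.37 FPKM, the order of Themis. Ptprc, the phosphatase CD45, had 90.4, 87.4 and 75.3 FPKM, a ratio of 1.20. Csk itself had 44.7, 52.3 and 56.8 FPKM, a gene named after its values were seen.

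Of 20 further adaptors and scaffolds, 17 were above 1 FPKM in every tumor. Among the 18 with a mean of at least 1 FPKM, 5 had a ratio of at least 2 and 9 were highest in tumor 2, against 34.4% and 33.7% of all genes. Grap2, the Gads adaptor that joins SLP76 to Lat, had 83.7, 125 and 80.8 FPKM, Grap had 39.8, 56.9 and 66.2, and Lax1 had 40.6, 60.3 and 52.1. Trat1, an adaptor that associates with the TCR, had the widest range, with 13.4, 0.231 and 2.82 FPKM, and was again lowest in tumor 2. Sh2d2a, which encodes an adaptor that binds Lck, had 17.6, 75.0 and 26.8 FPKM and was named after its values were seen.

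**Figure D4:**
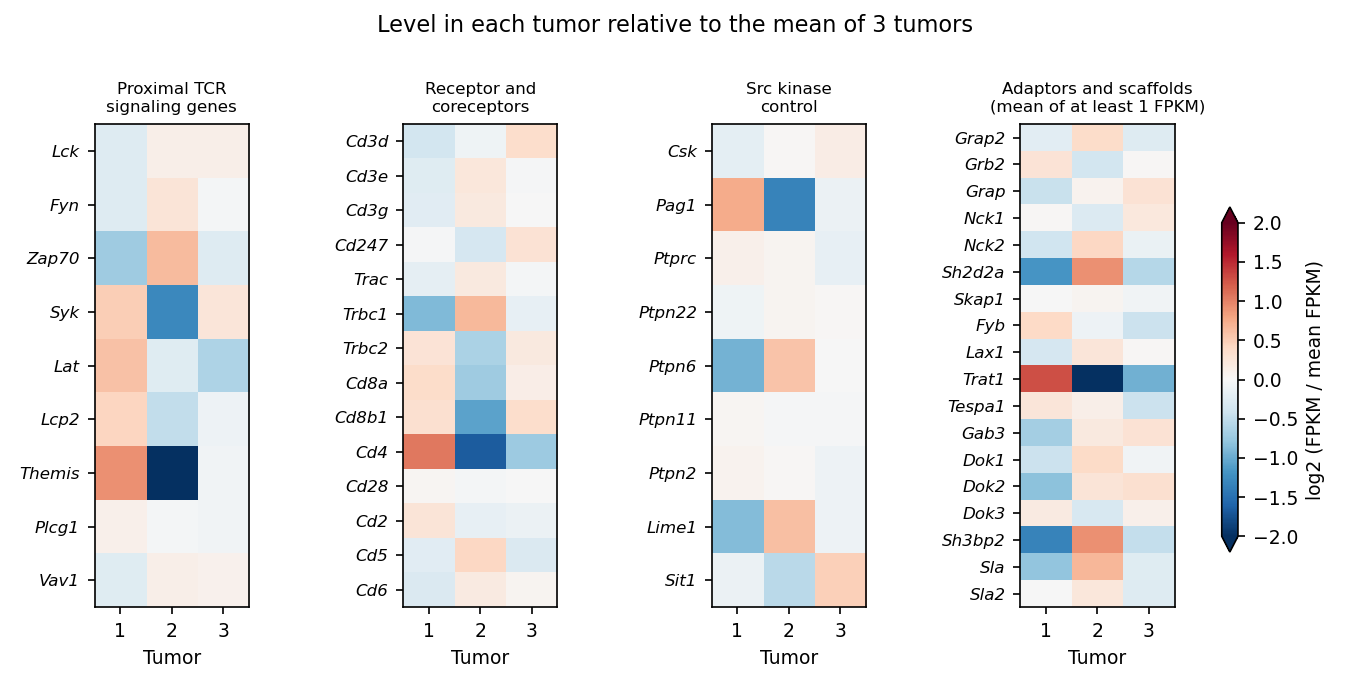
Level of each gene in tumors 1, 2 and 3 as log2 of FPKM divided by the mean of the tumors, from blue (below) to red (above), with colors limited at 2 in both directions. Themis, Syk, Pag1, Cd4 and Trat1 are lowest in tumor 2, whereas Zap70, Ptpn6 and Lime1 are highest there.

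Of the Tec kinases, which act with Zap70 on Plcg1, Txk had 10.7, 13.3 and 11.8 FPKM in tumors 1, 2 and 3, and Tec had 8.18, 10.1 and 9.21. Their ratios were 1.24 and 1.23. Of the genes of ubiquitin ligases and regulators of degradation, none of the 5 with a mean of at least 1 FPKM reached a ratio of 2, against 34.4% of all genes. In this list the most abundant were Cbl, with 18.0, 21.9 and 14.6 FPKM, Cblb, with 14.2, 21.8 and 16.0, and Ubash3a, with 17.3, 16.3 and 18.1.

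Of 29 genes of the branches below Plcg1 and Vav1, 28 were above 1 FPKM in every tumor, and 6 had a ratio of at least 2, against 34.4% of all genes. Rac2, a small GTPase of blood cells, was the most abundant, with 196, 283 and 231 FPKM in tumors 1, 2 and 3. Was, the actin regulator, had 37.6, 83.8 and 77.7 FPKM, and Dgka, a diacylglycerol kinase that limits Ras signals, had 97.1, 36.3 and 63.5. Rac1 varied most, with 41.0, 14.2 and 23.3 FPKM.

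Genes that TCR signals are known to induce had a lower median level than the other pathway lists. Of 14, 9 were above 1 FPKM in every tumor, their median mean level was 2.48 FPKM, and 5 of the 10 with a mean of at least 1 FPKM had a ratio of at least 2, against 34.4% of all genes. Myc had 55.2, 38.0 and 30.4 FPKM in tumors 1, 2 and 3, Dusp5, a phosphatase of ERK, had 13.6, 25.0 and 9.68, and Ier2 had 15.2, 12.6 and 14.8. Irf4, also a gene of plasma cells, varied most, with 3.57, 0.312 and 3.25 FPKM. Of the 10 genes, 7 had their highest FPKM in tumor 1 and the other 3 in tumor 2, against 50.6% and 33.7% of all genes, shares that depended on the scaling as given above.

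**Figure D5:**
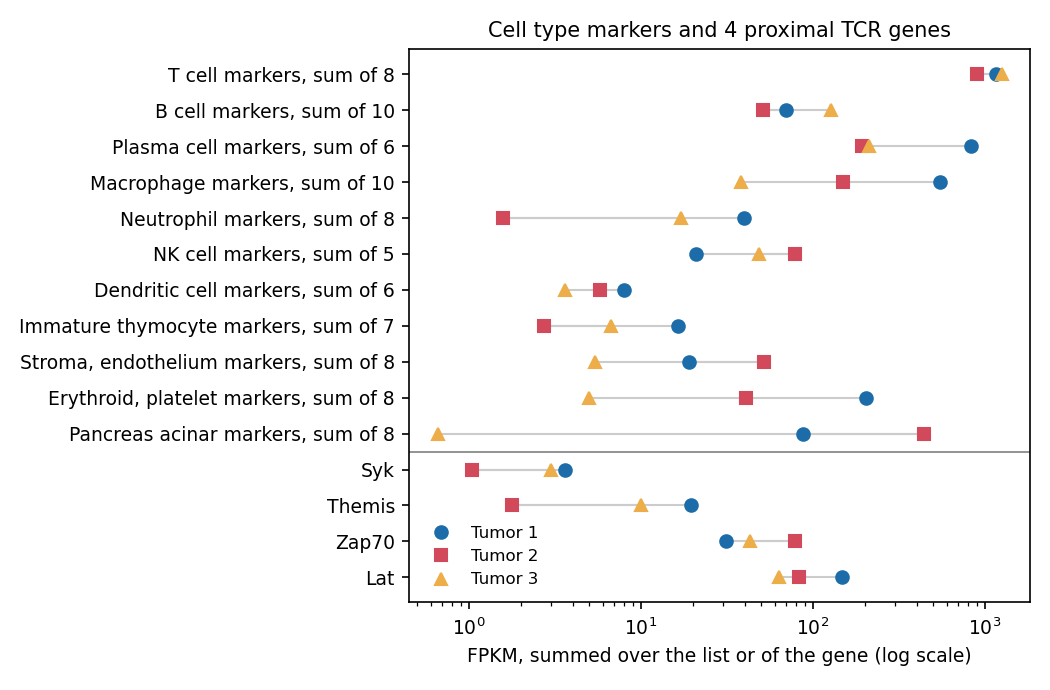
Summed FPKM of the markers of 11 cell types, above the line, and FPKM of Syk, Themis, Zap70 and Lat, below it, in the 3 tumors on a log scale. The pancreatic acinar sum runs from 0.657 FPKM in tumor 3 to 440 FPKM in tumor 2.

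The promoter windows of all 9 genes were found, with more than 1 window for 4 of them, and the window nearest the start of the gene in the table was used. CpG numbers split the set. Fyn and Syk had 31 each and Plcg1 27, above the third quartile of 20 over 32851 windows. Vav1 had 11, Lat 10, Zap70 8 and Lck 7, between the median of 7 and that quartile. Themis had 1 and Lcp2 had 0. The largest and the smallest ratio of FPKM between tumors thus belong to a window with 1 CpG (Themis) and a window with 27 (Plcg1), while Syk, with 31, had a ratio of 3.45, so no order of one by the other is read from 9 genes.

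Short motifs were searched on both strands of these windows. The E box CACCTG was in 5 of the 9 windows and in 20.2% of all windows. The SP1 motif GGGCGG, which holds a CpG of its own, was in 3 of the 9 and in 35.7% of all. The TCF motif CTTTGA was in 3 of the 9 and 16.0% of all, the RUNX motif TGTGGT in 2 of the 9 and 16.8% of all, and the GATA motif AGATAA in 1 of the 9, Lcp2, and 11.2% of all. A match describes these letters only. The window of Themis held none of the 5 motifs.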

How the data were processed

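RNA-seq of 3 Dnmt3b+/- PTCL was used. Per the labels and the methods of the study, reads were aligned with STAR to mm10 and quantified in SeqMonk, and the values that the authors deposited are linear FPKM for each tumor. Whether counting used the strand was not given in the sources used here. Of the exon bases of Lcp2, Plcg1, Lat, Themis and Lck, 6.32%, 6.68%, 2.71%, 1.31% and 0.854% are shared with an overlapping gene, so part of their reads may belong to it. Fyn, Zap70, Syk and Vav1 share none.

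Where no read was counted, the deposited FPKM is that of 0.9 read, which gave the depth of each library. Reads were recovered with merged exon lengths of GENCODE M21, which 99.6% of the genes have, and were whole within 0.02 read for 92.5%, 92.6% and 92.6% of them in tumors 1, 2 and 3. Intervals of FPKM are exact Poisson and those of ratios exact conditional binomial, at 95%. No count model was fitted. Steps were tested on simulated data.

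The 9 genes and all lists were chosen with earlier results of these data known. The text names the 9 genes, all their relatives, the 3 highest genes and the most variable gene with a mean of at least 1 FPKM of each pathway list, the leading genes of marker lists, and the 5 genes most like the most variable member. Some genes that the rule names are not reported here. Genes outside it are marked, and single markers were picked with their values known. The alternatives were 3 other scalings, fold thresholds of 1.5 and 3, a pseudocount of 1, other filters on low values, the longest transcript as gene length and each tumor left out. Scripts ran in Python 3.11, with matplotlib 3.10.9 for figures, SciPy 1.17.1 for intervals, and pandas 2.3.3 on NumPy 2.4.6 for tables.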

Additional observations from a re-analysis of the deposited data

How the results depend on the processing

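No paired analysis was possible because the expression values hold a single group. The count of 4 genes with a ratio of at least 2 was 5, 4 and 4 under the 3 other scalings, 5 with a threshold of 1.5 and 4 with a pseudocount of 1. It was 2 with a threshold of 3, and 1 to 3 with a tumor left out. The cause was not tested. The share of all genes with such a ratio, 34.4%, lay between 27.2% and 49.5% under the other scalings and filters. It was 62.8% with a threshold of 1.5 and 16.4% with a threshold of 3, as the change of threshold itself implies, and 16.4% to 25.2% with a tumor left out. For the share, the scalings, thresholds and left-out tumors were chosen after seeing the data. The ratios of Lck to Fyn, Zap70 to Syk and Lat to Lcp2 moved by less than their SD, with ranges of 3.13 to 3.47, 11.5 to 45.1 and 3.14 to 4.003 with a tumor left out. All 9 ranks by mean level were the same with the longest transcript as length. Means of the 9 genes moved by less than their SD in 36 settings, and in 9 by more, all from rescaling to a sum of 1000000, which changes the unit. With 3 tumors and 1 library each, differences between tumors hold mouse, tissue and library together and cannot be told apart.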

Other observations

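Values of the marker lists not given above also differed between tumors. The 8 neutrophil markers, led by S100a9, summed to 39.5, 1.57 and 17.0 FPKM in tumors 1, 2 and 3. The number of them with 3 reads or fewer was 2, 7 and 2, with Mpo and Elane at 1 read or none in every tumor. Of all genes with an exon length, 42.4%, 46.0% and 48.5% had no read. The share of all genes with 3 reads or fewer was not counted. The 5 natural killer cell markers, led by Eomes, summed to 20.98, 78.2 and 48.6 FPKM. The markers did not share an order, since Eomes had 20.0, 39.5 and 45.0 FPKM and Klre1 was high in tumor 2 alone, as given above. Ncr1, a defining marker, had 18, 6 and 4 reads. The 8 stroma and endothelium markers, led by Pecam1, summed to 18.9, 52.0 and 5.43 FPKM, with Col1a1 at 1.63, 15.5 and 0.315 FPKM. The 8 erythroid and platelet markers, led by Hba-a1, summed to 204, 40.5 and 5.01 FPKM. The 6 dendritic cell markers, led by Xcr1, summed to 8.01, 5.81 and 3.60 FPKM. The part of these cells in the levels of the 9 genes was not tested.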
